A study of Drosophila melanogaster with 6 samples.

Results

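Oxidative phosphorylation is carried out by 5 protein complexes of the inner mitochondrial membrane, and most of their subunits are encoded in the nucleus. The genes described here are all those whose FlyBase symbol begins with ND-, Sdh, UQCR, COX followed by a digit, or ATPsyn. They number 88 of the 17807 genes in the deposited tables: 64 standard genes and 24 paralogs with a symbol ending in L, a form given to copies known mainly from the fly testis. Of the standard genes, 34 belong to complex I, 5 to complex II (4 subunits and the assembly factor Sdhaf3), 6 to complex III, 8 to complex IV and 11 to complex V. The final L of ND-MNLL is part of the subunit name, so that gene was counted as standard.

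Complexes I and II pass electrons from NADH and succinate to ubiquinone, complex III passes them on to cytochrome c, and complex IV passes them to oxygen. Complexes I, III and IV pump protons out of the matrix, and complex V, the ATP synthase, makes ATP as the protons return. Complex II is also the succinate dehydrogenase of the tricarboxylic acid cycle. All its subunits are nuclear-encoded, while the other complexes also hold subunits made from mitochondrial DNA.

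The lymph gland is the blood-forming organ of the Drosophila melanogaster larva, and polyadenylated RNA of whole glands was sequenced in 6 libraries. All 6 were made from larvae in the third instar, of wild-type genotype, on the background BL-30140 crossed to w1118, raised at 25˚C on semi-defined medium, and none had a treatment or a mutant allele for comparison. The labels name 2 experimenters with 3 libraries each, called set A and set B here, so a difference between sets by experimenter cannot be told apart from one by any batch. The series text calls the 6 libraries biological replicates, but neither it nor the labels give the number of larvae per library.

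The total expected count per library, which is the estimated number of sequenced fragments assigned to genes, ran from 18689689 to 26003822. All 8 markers of blood cells and lymph gland were found at a TPM (a relative transcript abundance corrected for length) of at least 1 in every library, with a summed TPM between 14527 and 20641. Markers of other tissues were present in unequal amounts, as summed TPM of their lists. The ring gland, the endocrine organ next to the lymph gland, gave 986 to 3053 (6 of 6 markers above 1 in every library), and muscle gave 289.8 to 1660.03 (6 of 7, with the flight muscle actin Act88F near 0). Fat body markers reached 721 in set A replicate 3 against 7.04 to 22.5 in the other libraries (3 of 6 markers above 1 in every library). Salivary gland markers reached 5319 in set B replicate 2 against 13.9 to 79.1 elsewhere (2 of 7, with ng2 listed at 0 throughout). Neural and glial markers reached 24.8 in set B replicate 1 against 1.56 to 4.62 (1 of 5). The part these tissues have in the values below was not tested, except where a value is given beside a result. In whole organs, fewer cells of a type and less RNA per cell cannot be told apart.

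Nearly the whole standard set was expressed in every library. Of the 64 standard genes, 63 had a TPM of at least 1 in all 6 libraries, against 41.4% of all genes, and 62 had at least 50. Their counts per gene and library ran from 93 to 42854. The exception below 50 was Sdhaf3, an assembly factor for the iron-sulfur subunit of complex II, at 19.0 to 24.5 TPM. The remaining gene, ND-B8 (2L:4454626-4455207, plus strand, BDGP6.54), which encodes the fly counterpart of the human complex I subunit NDUFA2, was listed at 0 in all 6 libraries. A count of 3 would have been a TPM of 0.461 to 0.633 for this gene. Its last 71 bases lie opposite to Gs1l, a gene read at 13.2 to 18.6 TPM. Together the standard genes took 1.504% to 1.75% of all TPM. Of the 64, 30 overlap a gene on the opposite strand, ATPsynbeta, COX5A and ND-51 among them, and use of strand in counting is not given in the sources used here.

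**Figure D1:**
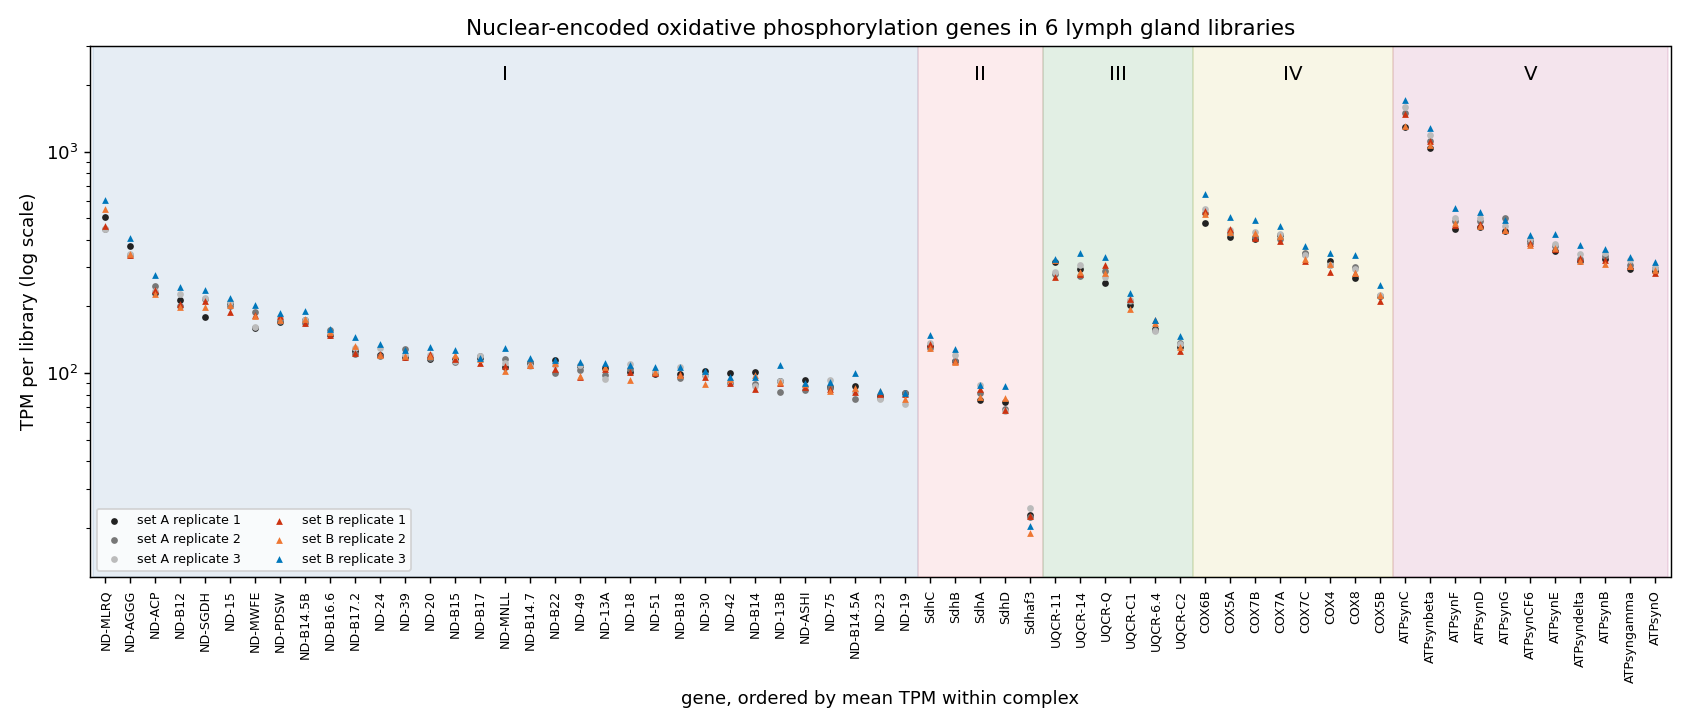
TPM of each standard gene in each of the 6 libraries (log scale), ordered by mean TPM within complexes I to V; circles are set A and triangles set B, and ND-B8, listed at 0, is not drawn. ATPsynC and ATPsynbeta stand above all other genes, and set B replicate 3 (blue triangles) is the highest library for 51 of the 63 genes drawn.

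The complexes differed in level in the same order in every library. The median TPM of the members was 396 ± 16.2 for complex V, 380.2 ± 21.0 for complex IV, 246 ± 17.2 for complex III, 112 ± 2.92 for complex I and 99.8 ± 5.57 for complex II (mean ± SD of the library medians, n = 6). The ranges over libraries overlapped between complexes V and IV (379.8 to 424.6 and 358 to 419.7). Those of complexes I and II also overlapped (108 to 117 and 94.6 to 108). Within each library, however, complex V was above complex IV and complex I above complex II. Complex III lay apart from the other complexes in every library, between 228 and 279. The symbol rule misses several subunits with names of their own. With these added, the median became 211 for complex III (9 genes), 424 for complex IV (10 genes) and 396 for complex V (13 genes), so the order of complexes IV and V changed.

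Complex V held the most abundant members. ATPsynC (3R:31216145-31219630, minus strand), the membrane c subunit that is present in several copies per enzyme and forms its rotating ring, was read at 1296, 1498 and 1585 TPM in replicates 1 to 3 of set A. In set B it was at 1476, 1303 and 1706 TPM, a mean of 1477 ± 160 over both sets (SD, n = 6), which ranked 116 among all genes. Set A replicate 1 and set B replicate 2 were the low libraries, and the sets overlapped.

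ATPsynbeta (4:1031484-1034917, plus strand), the catalytic subunit of the F1 head, was at 1042, 1121 and 1189 TPM in set A and at 1119.8, 1067 and 1272 in set B (1135 ± 84.2, SD, n = 6). Its highest library was below the lowest library of ATPsynC, and its lowest library was above the highest of COX6B, the next gene in the order of means. From COX6B downwards, each gene overlapped with the next one in that order, except SdhD, which lay above Sdhaf3 in every library.

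The other 9 members of complex V lay between 296 and 490 TPM. The membrane subunit ATPsynF was the highest of them (490 ± 38.6, SD, n = 6). The 2 lowest were ATPsyngamma, the central stalk that turns inside the head (311 ± 14.2), and ATPsynO, part of the peripheral stalk that holds the head in place (296 ± 12.2). The other peripheral stalk genes ATPsynB, ATPsynCF6 and ATPsynD were at 336, 395 and 485 TPM, and of these 4 stalk genes only ATPsynO and ATPsynB overlapped across libraries. The alpha subunit, encoded by blw and outside the symbol rule, was at 683 ± 59.0 TPM.

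In complex IV, cytochrome c oxidase, the 8 members covered a narrow span, with the highest mean 2.40 times the lowest. COX6B was at 477, 526 and 549 TPM in set A and at 538, 522 and 642 in set B (542 ± 54.9, SD, n = 6), with set B replicate 3 above the rest. COX5A was at 413, 431 and 441 TPM in set A and at 449, 432 and 509 in set B, and all other libraries lay closer together than set B replicate 3 lay to them. COX7B followed at 429 ± 32.5 and COX4 at 313 ± 21.1. At the low end were COX8 (295 ± 25.7) and the zinc-binding subunit COX5B (226 ± 12.3).

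In complex III, the small subunits UQCR-11, UQCR-14 and UQCR-Q were the highest, at 301 ± 24.9, 298 ± 26.7 and 289.9 ± 27.6 TPM (SD, n = 6). The large core proteins UQCR-C1 (211 ± 11.9) and UQCR-C2 (135 ± 7.28) differed although the enzyme contains them in equal number, and their ranges of 195 to 229.6 and 126 to 147 TPM did not overlap. UQCR-6.4 lay between them at 164 ± 8.50. The electron carriers of this complex that lie outside the symbol rule, Cyt-c1 and the Rieske protein RFeSP, were at 135 ± 10.97 and 170.3 ± 8.83.

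In complex II, the membrane anchor SdhC (135 ± 7.23 TPM) and the iron-sulfur subunit SdhB (117 ± 6.47) were above the flavoprotein SdhA (82.6 ± 5.36) and the other anchor SdhD (73.9 ± 7.75; SD, n = 6). SdhB and SdhA did not overlap across libraries, whereas SdhA and SdhD did.

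Complex I had the most members, with a factor of 6.37 between the lowest expressed gene, ND-19, and the highest, ND-MLRQ. Its 7 nuclear-encoded core subunits, which carry the flavin, iron-sulfur clusters and the quinone site, kept to a narrow band of 79.7 to 124 TPM. Those of the NADH-oxidising arm were at 124 (ND-24), 101.4 (ND-51) and 87.3 (ND-75). Those next to the quinone site were at 121 (ND-20), 104 (ND-49), 97.7 (ND-30) and 79.7 (ND-23). ND-51 (2L:6060842-6062757, minus strand), which binds NADH and the flavin, read 99.4, 99.6 and 102 TPM in set A and 100.3, 101.07 and 106 in set B (101.4 ± 2.52, SD, n = 6).

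The 26 accessory subunits of complex I that were above 0 ran from 78.8 (ND-19) to 502 TPM, and their median was 117. ND-MLRQ was the highest, at 505, 446 and 447 TPM in set A and at 463, 551 and 602 in set B. The human counterpart of this gene, NDUFA4, is now assigned to complex IV. ND-AGGG followed at 359 ± 26.1 and ND-ACP at 242 ± 18.5. ND-ACP is the mitochondrial acyl carrier protein, which also serves mitochondrial fatty acid synthesis. For 1 gene, ND-MNLL (112 TPM), the share of reads was uncertain: it shares reads with CG45089 on the same strand, the 2 genes had counts of 540 to 909 and 506 to 853, and the posterior SD deposited by the authors was 36.6% to 56.1% of its count.

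The testis-type paralogs were close to 0 throughout. None of the 24 reached a TPM of 1 in any library, 15 had no count in any library, and the other 9 had 73 counts in all. Their share of the counts of all 88 genes was between 0.00461% and 0.00867% per library, with 95% Wilson intervals that ran from 0.00258% to 0.0143% and cover counting error only. Over all 24 paralogs, 3 counts would have been between 0.0666 and 0.764 TPM, depending on gene and library.

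**Figure D2:**
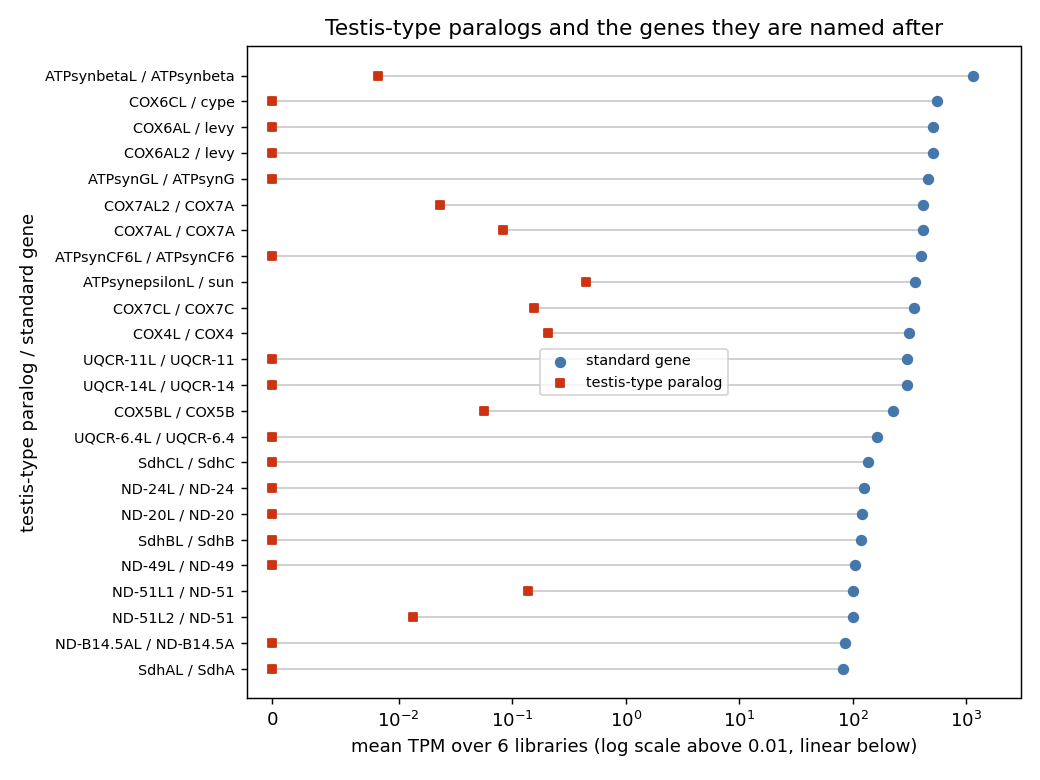
Mean TPM over 6 libraries of each testis-type paralog (red squares) and of the standard gene it is named after (blue circles), on a scale that is logarithmic above 0.01 and linear below. All 24 paralogs lie below 1, and the lowest standard gene drawn, SdhA, lies at 82.6.

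ATPsynepsilonL was the highest paralog by mean, at 0.35, 0.80 and 0.24 TPM in set A and 0.70, 0.24 and 0.37 in set B, from 13 counts in all. Its standard gene sun, the epsilon subunit of the F1 head, was at 351 TPM. COX4L had 12 counts (mean 0.208 TPM) and ND-51L1 had 31 (0.138 TPM), the most of any paralog. Several paralogs lie next to their standard gene. COX5BL is 122 bases from COX5B on 2L, with 0.0567 against 226 TPM. COX7CL is 281 bases from COX7C on 2R, with 0.157 against 344 TPM, and COX7AL is 2625 bases from COX7A on 3R, with 0.0833 against 419.5 TPM. In these pairs a shared place in the genome did not go with a like level. Of 11 testis marker genes, 8 were below 1 TPM in all 6 libraries, 3 of them listed at 0, and only twe was above 1 in all. The summed TPM of that list was 4.74 to 6.66.

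In gene structure, the median transcript length was 665 nt for the 63 expressed standard genes and 657 nt for the testis-type paralogs, against 1899 nt for 7728 protein-coding genes with a mean TPM of at least 1. Every one of the 63 standard genes has an intron in at least 1 transcript, whereas 6 of the 24 paralogs and 651 of the 7728 protein-coding genes have none. The standard genes are spread over the chromosome arms, with 12 on X, 12 on 2L, 11 on 2R, 13 on 3L and 14 on 3R. The small chromosome 4 holds 2 of them, ATPsynbeta and ND-49. On the X lies 1 of the 24 paralogs.

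The members varied little between the 6 libraries. The median coefficient of variation (SD as a share of the mean) of the 63 expressed genes was 5.85%, with an interquartile range of 4.603% to 7.76%, and 59 of 63 were below 10%. For all 8095 genes with a mean TPM of at least 1 it was 10.9%, and 44.97% were below 10%. The 73 mitochondrial ribosomal protein genes had a median of 7.41% at a median level of 41.6 TPM, and 85 cytosolic ribosomal protein genes had 4.01% at 4794 TPM. Counting error alone gave medians of 2.36%, 3.81%, 4.50% and 0.465% for the members, all genes, and the mitochondrial and cytosolic ribosomal protein genes respectively, so the families also differed in counting error.

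**Figure D3:**
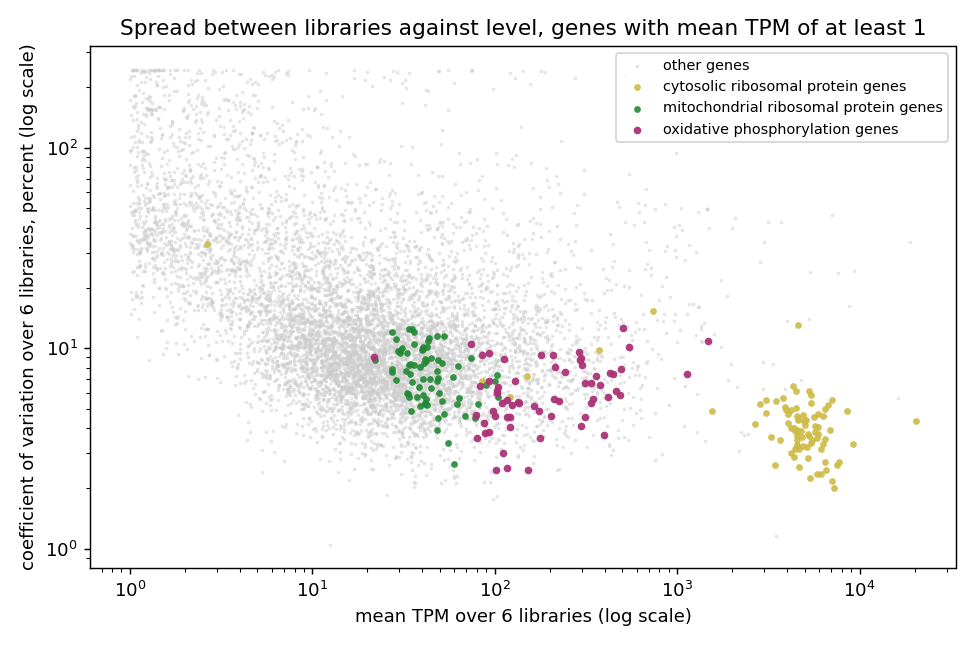
Coefficient of variation over 6 libraries against mean TPM (both log scales) for the 8095 genes with a mean TPM of at least 1; purple points are the 63 expressed standard genes, green the mitochondrial and yellow the cytosolic ribosomal protein genes. Of the purple points, 59 of 63 lie below 10%, and their median of 5.85% lies between the medians of the 2 ribosomal protein families.

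ND-B16.6, ND-51 and ND-B17 of complex I had the lowest coefficients of variation, 2.48%, 2.48% and 2.54%. Their counting error alone was 2.47%, 1.92% and 2.84%, so the order among the steadiest genes is not resolved. Above 10% were ND-MLRQ (12.7%), ATPsynC (10.8%), SdhD (10.5%) and COX6B (10.1%), with UQCR-Q next at 9.54%. By complex the median was 4.88% for I, 6.01% for II, 6.94% for III, 7.11% for IV and 6.12% for V.

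Much of the spread came from 1 library, and without it the median coefficient of variation of the members was 4.09%. Set B replicate 3 was the highest library for 51 of the 63 genes (81.0%), against 10.6% of all genes. These were 24 genes of complex I, all 4 subunits of complex II, 5 of 6 in complex III, all 8 in complex IV and 10 of 11 in complex V. Its TPM divided by the mean of the other 5 libraries had a median of 1.11 over the members and of 0.961 over all genes. This ratio was above 1 for 62 of 63 members, the exception being Sdhaf3 (0.915). The share of all genes above 1 was not computed, though their median lay below 1. By complex this ratio was highest for IV (1.16) and lowest for I (1.08), with 1.12 for II, 1.11 for III and 1.12 for V. Single genes with a high ratio were ND-MLRQ (1.25), SdhD (1.23) and COX6B (1.23), while ND-B17 was at 1.0007. TMM-adjusted CPM (read counts scaled to library size) align libraries by their bulk of genes. On that scale 55 of 63 members (87.3%) were highest in set B replicate 3, against 14.9% of the 8491 genes tested. The median ratio was 1.14 for members and 0.989 for all genes tested. The median coefficient of variation of the members over all libraries was 7.52% on that scale. It was not computed there for the other families or for all genes.

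**Figure D4:**
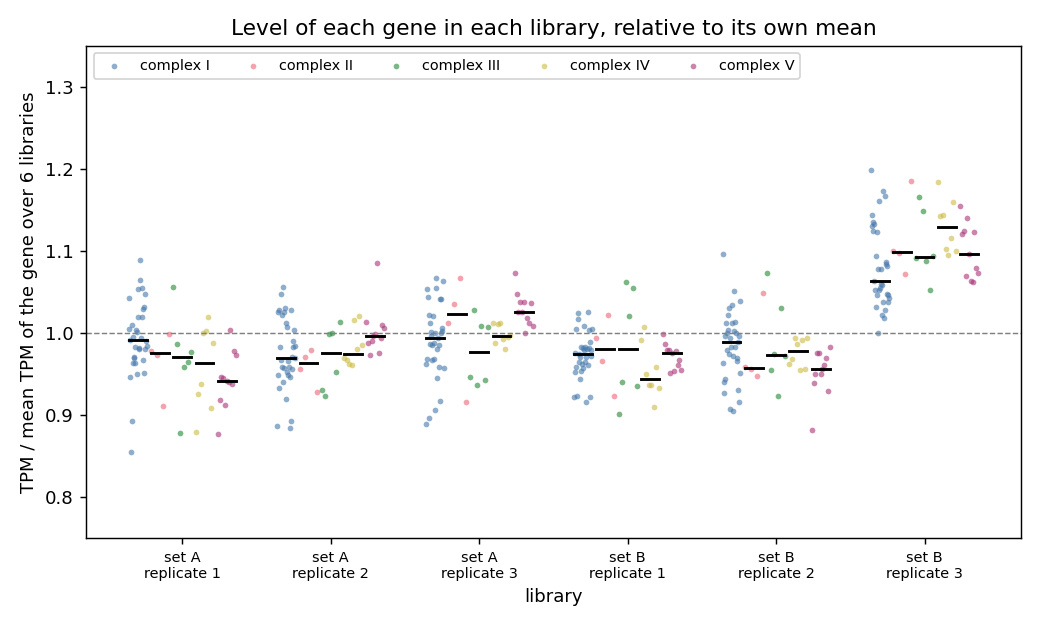
TPM of each of the 62 expressed subunit genes in each library divided by that gene's mean over the 6 libraries, coloured by complex, with black bars at the median of each complex; Sdhaf3 is not drawn. In set B replicate 3 the medians of all 5 complexes lie above 1, and elsewhere only those of complexes II and V in set A replicate 3 do.

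Other lists differed in how many of their genes were highest in that library. Mitochondrial ribosomal protein genes were in 39 of 73 cases (53.4%), tricarboxylic acid cycle genes in 10 of 15 and mitochondrial biogenesis genes in 3 of 9. The biogenesis list was srl, ewg, Ets97D, TFAM, mtTFB2, PolrMT, mtSSB, PolG1 and Lrpprc2. Cytosolic ribosomal protein genes were in 4 of 85 (4.71%), below the share of all genes. Muscle markers were also highest in set B replicate 3, 6 of 7 of them, with a summed TPM of 1660.03 against 737.8 in set B replicate 2 and 289.8 to 469.7 in the other 4. In set B replicate 2, which had the next highest muscle sum, no member was at its highest, against 16.4% of all genes. The part of muscle RNA in the level of the members was not tested.

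Over all standard genes, the summed TPM was 15043, 15494 and 15874 in set A and 15293, 15213 and 17513 in set B. The highest sum was 1.16 times the lowest, and the coefficient of variation of the sum was 5.81%. The 13 subunits encoded in mitochondrial DNA, read from the same libraries, summed to 4136, 6441 and 7067 TPM in set A and to 7409.98, 11955 and 14484 in set B. They spanned a factor of 3.50, with a coefficient of variation of 44.9%, and all libraries of set B were above all of set A. Nuclear and mitochondrial subunits thus shared their highest library, but set B replicate 2, with the next highest mitochondrial sum, was next to lowest for the nuclear genes.

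**Figure D5:**
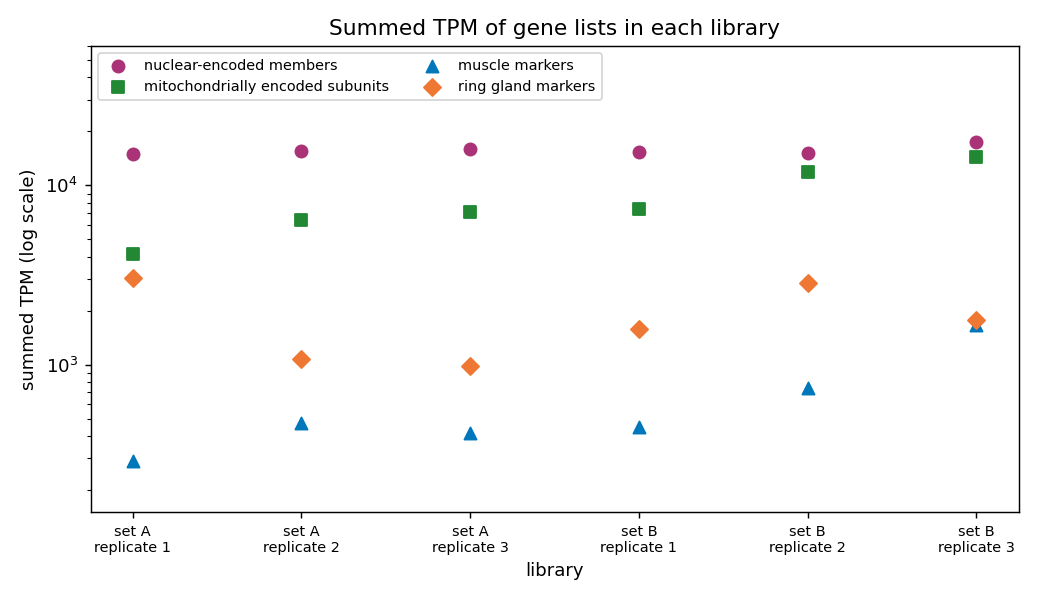
Summed TPM (log scale) of the 64 standard nuclear-encoded genes, the 13 mitochondrially encoded subunits, and the muscle and ring gland markers in each library. The nuclear genes stay between 15043 and 17513, while the mitochondrially encoded subunits run from 4136 to 14484.

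The libraries with the highest ring gland sums were set A replicate 1 (3053 TPM) and set B replicate 2 (2869 TPM). These were the 2 lowest libraries for 12 of the 63 members, against 20.8% of all genes, a share near the background. In complex V this held for 5 of 11 genes, among them ATPsynC and ATPsynbeta. The part of ring gland RNA was not tested.

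No member passed the test between the sets. The quasi-likelihood test of edgeR tested 8491 genes and called 0 (0%) at an adjusted p under 0.05, with 353 (4.16%) at an unadjusted p under 0.05. Among the 63 expressed members 0 were called and 0 had an unadjusted p under 0.05. DESeq2 called 22 of the 8491 genes (0.259%) and 0 members. The log2 difference of the members, set B minus set A, ran from -0.18 to 0.20 with standard errors of 0.069 to 0.15, and every 95% interval lay within -0.54 and 0.51. The lower of these bounds came from Sdhaf3 and the upper from ND-MLRQ, so they are not a limit for every member. The median standard error of the members was 0.096. The interval of each member included 0, and for that member differences inside its own interval cannot be told from none at this number of libraries.

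The sign of the differences depended on single libraries. Of the 63 members, 46 had a positive difference, against 48.4% of all genes, but the number was 8 without set B replicate 3 and 31 without set A replicate 1. All 3 libraries of set B were above all of set A for 3 members (ND-B15, ND-23 and UQCR-6.4), against 4.53% of genes, and below for 1 (ND-B17), against 1.58%. The smallest unadjusted p belonged to UQCR-6.4, at 158, 156 and 155 TPM in set A and 173, 169 and 173 in set B, a log2 difference of 0.13 ± 0.069 (SE). Its edgeR p was 0.118 before and 0.9997 after adjustment. ND-MLRQ (0.20 ± 0.13) and UQCR-Q (0.16 ± 0.11) came next among the higher genes. Among the lower ones, Sdhaf3 (-0.18 ± 0.15), ND-30 (-0.07 ± 0.084) and ND-49 (-0.08 ± 0.098) came first. All had an edgeR adjusted p of 0.9997.

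Lists of related genes were read from the same fit. Of 12 tested mitochondrially encoded subunits, 0 were called by edgeR, 9 had an unadjusted p under 0.05 and 10 had a positive difference, with a median log2 difference of 0.96. Of 15 tricarboxylic acid cycle genes 0 were called and 6 had a positive difference (median -0.01). Of the 9 mitochondrial biogenesis genes 0 were called and 7 had a positive difference (median 0.03). Of 6 tested muscle markers 0 were called, 5 had an unadjusted p under 0.05 and all 6 had a positive difference (median 1.37). In the other tissue lists edgeR also called 0 genes. All 4 tested salivary gland markers (median 6.32, 4 with an unadjusted p under 0.05) and all 3 neural and glial markers (median 2.18, 2 with such a p) had a positive difference. Of 6 fat body markers 0 had one (median -4.73, 3 with such a p), and each of these 3 lists was high in 1 library. Of 8 blood cell and lymph gland markers 2 had a positive difference (median -0.22, 1 with such a p), and of 6 ring gland markers 5 had one (median 0.25, 0 with such a p).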

How the data were processed

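Per the submitters' processing notes, the tools were CASAVA 1.8.2, Trimmomatic 0.35, STAR 2.7.1a and RSEM 1.2.28, with genome build BDGP6, and the labels' protocols name column-purified RNA and a stranded kit selecting polyadenylated RNA. RSEM estimates by likelihood how many fragments each gene produced. Those estimates are the expected counts that the authors deposited, which are neither normalized nor always whole. The TPM deposited by the authors is corrected for effective length and sums to the same total in each library. The FPKM deposited by the authors, scaled by length and library size, served as an alternative. The posterior SD of each count, a score deposited by the authors, and the deposited lengths were also read.

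Symbols, positions and transcripts came from Ensembl release 115 (BDGP6.54), where all 88 genes were matched by gene ID. Of the 10341 genes with 1 transcript, 10316 had the same length in both, as did 29 of 29 members.

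Expected counts, rounded to whole numbers, were tested for set B against set A by the edgeR 4.0.16 quasi-likelihood method (R 4.3.3), with its default filter, TMM normalization and Benjamini-Hochberg adjustment over all 8491 genes tested, at 0.05. The filter kept 63 of the 64 standard members and none of the testis-type paralogs. Standard errors came from the estimate and its F statistic. The fit was tested on simulated counts with known changes, larger than any difference seen in a member. That test does not speak for differences as small as those of the members. DESeq2 1.42.0, other scalings and filters, a replicate block and leaving out each library were the alternatives. The series text calls the libraries biological replicates, but whether they came from separate larvae is not stated. The p-values thus measure the spread between these libraries, which may include technical differences. No 2 libraries agreed within sampling noise. Summaries used Python 3.11.15 with pandas 2.3.3.

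Named genes are, per complex, the 3 highest and 2 lowest by mean TPM, the 5 most and 3 least variable, the 3 with the smallest p in each direction, those with a library standing apart, and the core subunits. Any other gene, such as those of the stalk or beside a paralog, was chosen with its values in view. The members and lists were chosen with earlier results of these data known. Promoter sequences were not analysed here.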

Additional observations from a re-analysis of the deposited data

Results flagged for a closer look

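A library was taken to stand apart where its gap to the nearest other, as a share of the whole range, passed Dixon's 95% critical value for 6 libraries. Of 92 values examined, 14 met this, where chance gives about 1 in 20 (4.6), and in 11 of them set B replicate 3 was the highest library.

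These 11 include 4 member genes of the 63 examined, a share close to the 1 in 20 that chance gives. The other values include sums over the same genes and are not independent of them. The gap was 0.697 of the range for ND-B14.5B, an accessory subunit of complex I at 192 TPM against 168 to 175 elsewhere, and 0.677 for ND-51. In complex IV it was 0.6254 for COX5A and 0.648 for COX7B. The summed TPM stood apart for complex I (0.828, with 5259 against 4637 to 4744), complex II (0.649), complex III (0.826), complex IV (0.733) and all standard genes (0.664), and did not for complex V. The same library stood apart for sun (0.628), the epsilon subunit of complex V, and for the summed muscle markers (0.673).

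Other libraries stood apart in the markers of other tissues. These were set A replicate 3 for the fat body list (0.978), set B replicate 2 for the salivary gland list (0.988) and set B replicate 1 for the neural and glial list (0.868). No member gene stood apart in those libraries.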

How the results depend on the processing

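The number of members past the threshold between sets was 0 under every alternative run, including DESeq2, which called 22 genes in the whole table. Replicate numbers were not treated as a pairing in the main fit. Same-numbered libraries had correlations of -0.17, -0.28 and 0.37 in their deviations from the set means, and differently numbered ones -0.50 to 0.56. Deviations within a set are not independent of each other, so these values cannot decide whether libraries were paired. With the replicate block, 0 genes and 0 members were called, and 43 members had a positive difference. Leaving out each library in turn gave 8 to 56 members with a positive difference, 8 without set B replicate 3 and 31 without set A replicate 1. It moved the log2 difference of ND-MLRQ between 0.09 and 0.32, of UQCR-Q between 0.06 and 0.23, of ND-30 between -0.16 and -0.02 and of ND-49 between -0.19 and -0.03. With FPKM in place of TPM, the medians were 98.3 (complex I), 87.8 (II), 216 (III), 335 (IV) and 348 (V). FPKM and TPM differ by a constant factor within a library, so the order of the complexes could not change and was not tested by this. With subunits outside the symbol rule added, an alternative chosen after seeing the data, they were 211 for complex III and 424 for complex IV, since more genes entered. Of the remaining recomputed values, the 83 for counts and medians stayed within 1.5 times the main count or within its SD, and the 60 for single members kept their direction and passed no threshold. Depth limits the testis-type paralogs and Sdhaf3. It also limits the spread of the steadiest members, such as ND-B17, with a coefficient of variation of 2.54% against a counting error of 2.84%. Why ND-B8 had no count was not tested. The number of libraries limits the comparison between sets.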

Other observations

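Several mitochondrial genes lie outside the symbol rule. The complex IV subunits cype and levy were at 551 ± 27.8 and 509 ± 18.3 TPM (SD, n = 6), and ox of complex III was at 255 ± 22.5. The ADP/ATP carrier sesB was at 823, 983 and 1075 TPM in set A and at 979.6, 808 and 1184 in set B. Ant2, whose annotated span on the X overlaps that of sesB, stayed between 0.22 and 0.75. How reads were shared between these genes was not examined. The outer membrane channel porin was at 629.7 ± 39.7 TPM. Electrons between complexes III and IV are carried by cytochrome c, for which Cyt-c-p was at 179 ± 32.6 TPM and the copy Cyt-c-d, known from the testis, at 0.0767. Likewise the testis copy Cyt-c1L was at 0.165 TPM against 135 for Cyt-c1.

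The 2 phosphate carriers differed in pattern. Mpcp2 was at 404, 537 and 553 TPM in set A and at 524, 407 and 537 in set B. Mpcp1 was at 1.09, 1.14 and 1.06 TPM in set A and at 1.34, 6.90 and 12.4 in set B. The 2 libraries with the highest Mpcp1 were also those with the highest summed muscle markers, 738 and 1660.03 TPM, and the part of muscle RNA was not tested.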
